A study of Rattus norvegicus with 200 samples.

Results

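Rats given a high-fat diet (HFD) were compared between 2 feeding schedules in the light phase of the day: food always present (ad libitum) and food given in the dark phase only (dark-feeding). The comparison took the libraries labelled HFD ad libitum (16) and HFD dark-feeding (17) at Zeitgeber times (ZT) 2, 6 and 10, ZT being hours after lights on. These were 33 of the 200 libraries of the series, with 5 or 6 libraries per schedule and time. The animals were male wild-type Wistar rats, an outbred laboratory stock, and every library was bulk RNA from brain cells labelled microglia. The labels give no age and no length of feeding. Nothing in them ties each library to its own animal, and the p-values below therefore measure how far libraries of one group spread. The question was whether, on the same diet, restricting food to the night was accompanied by other transcript levels by day.

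Rats eat mostly at night, and a high-fat diet with free access is known to spread meals into the light phase. Under dark-feeding the light phase is therefore a fast, whereas ad libitum animals can eat through it. Microglia are the resident macrophages of the brain, dependent on the receptor CSF1R for survival, and they hold a cell-autonomous clock. In that clock BMAL1 (gene Arntl) and CLOCK activate the Per, Cry and Nr1d genes through E-box sequences, and NR1D1 and the ROR receptors act in turn on Arntl. Dbp and Ciart are direct outputs of the activating arm.

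Total counts, in units of 1e6, were 5.27 to 10.8 (median 7.555) in the ad libitum libraries and 5.54 to 11.5 (median 8.03) in the dark-feeding libraries. No library was a copy of another of the same schedule and time: the closest of 75 such pairs had a chi-square over its degrees of freedom of 2.47, beyond sampling noise. Pairs across schedules or times were not checked. FPKM values, which are scaled for gene length, showed that microglial markers were present, and that markers of oligodendrocytes and neurons were more abundant. The median FPKM of P2ry12, a purinergic receptor of microglia, was 59.5 in ad libitum (47.8 to 91.4) and 60.9 in dark-feeding libraries (44.9 to 82.6). That of Csf1r was 85.9 (64.1 to 138.9) and 89.6 (71.2 to 104.4). By comparison the myelin gene Mbp stood at 2004 and 2222 FPKM and the glutamate transporter gene Slc17a7 of excitatory neurons at 605.9 and 574.4 FPKM. The astrocyte filament gene Gfap, at 26.0 and 19.1 FPKM, was below both microglial genes. Median FPKM over 21 homeostatic microglial genes was 19.4 and 20.7, over 18 neuron genes 64.7 and 55.4, and over 14 oligodendrocyte genes 221.8 and 245.9. In bulk RNA of this kind, fewer cells of a type and less RNA per cell cannot be told apart.

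Each title carries a running number, whose meaning the labels do not state, and the schedules differed in it. Of the 16 ad libitum libraries 13 had numbers up to 46 and 3, all at ZT10, had numbers above 100. Of the 17 dark-feeding libraries 0 had numbers up to 46, 11 had numbers from 47 to 63 and 6 had numbers above 100. At ZT2 and ZT6 every ad libitum number was 45 or lower and every dark-feeding number 47 or higher, so schedule and title number cannot be told apart there. The ad libitum library titled 45 (ZT6) stood apart on the first principal component, at 62.9 against -17 to 23.4 for the other libraries; that component held 14.5% of the variance.

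Under dark-feeding on HFD 5 of 17 astrocyte markers, 5 of 18 neuron markers and the clock gene Rorb were called lower, and 17 genes, among them Cspg4, Sulf2 and F13a1, were called higher. Among 21 homeostatic microglial genes 0 were called in either direction, but at the share called over all genes (0.628%) a list of this size may hold none. Of 14176 genes tested 89 were called at an adjusted p under 0.05 by edgeR's quasi-likelihood test, 0.628% of the genes. Of these 17 were higher (0.12%) and 72 were lower (0.508%) under dark-feeding, and 1927 genes had an unadjusted p under 0.05, 836 of them higher and 1091 lower. Of all genes tested 7337 had a positive and 6839 a negative log2 fold change. The differences were small: the median size of log2 fold change (log2FC, dark-feeding minus ad libitum) among the 89 was 0.37, the smallest was 0.15, and 16 genes changed by at least 1.5-fold, 6 of them higher and 10 lower. All 89 had the same sign at ZT2, ZT6 and ZT10, but they were chosen in a fit that pooled these times, which favours such agreement. The count depended on single libraries. It was 0 without the ad libitum library titled 23 or 37 and 282 without the one titled 45, and the FPKM table gave 0 calls by limma, with 1730 genes at an unadjusted p under 0.05. With title number as a linear covariate 262 genes were called (159 higher and 103 lower), with a term for numbers above 100 there were 264 (118 and 146), and with counts summed over runs of adjacent numbers there were 0. With marker scores of neurons, oligodendrocytes, astrocytes and endothelium as covariates 7 genes were called, all higher. Among the ZT10 libraries titled above 100, the number range that both schedules share, 24 of 57 called genes followed across settings had the opposite sign.

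Taken 1 time point at a time, 0 genes were called by edgeR at ZT2, ZT6 or ZT10, with 964, 1097 and 953 genes at an unadjusted p under 0.05. DESeq2 called 4, 3 and 1. The test of whether the schedule effect differed between the 3 times called 0 genes with edgeR (496 at an unadjusted p under 0.05) and 0 with DESeq2.

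**Figure D1:**
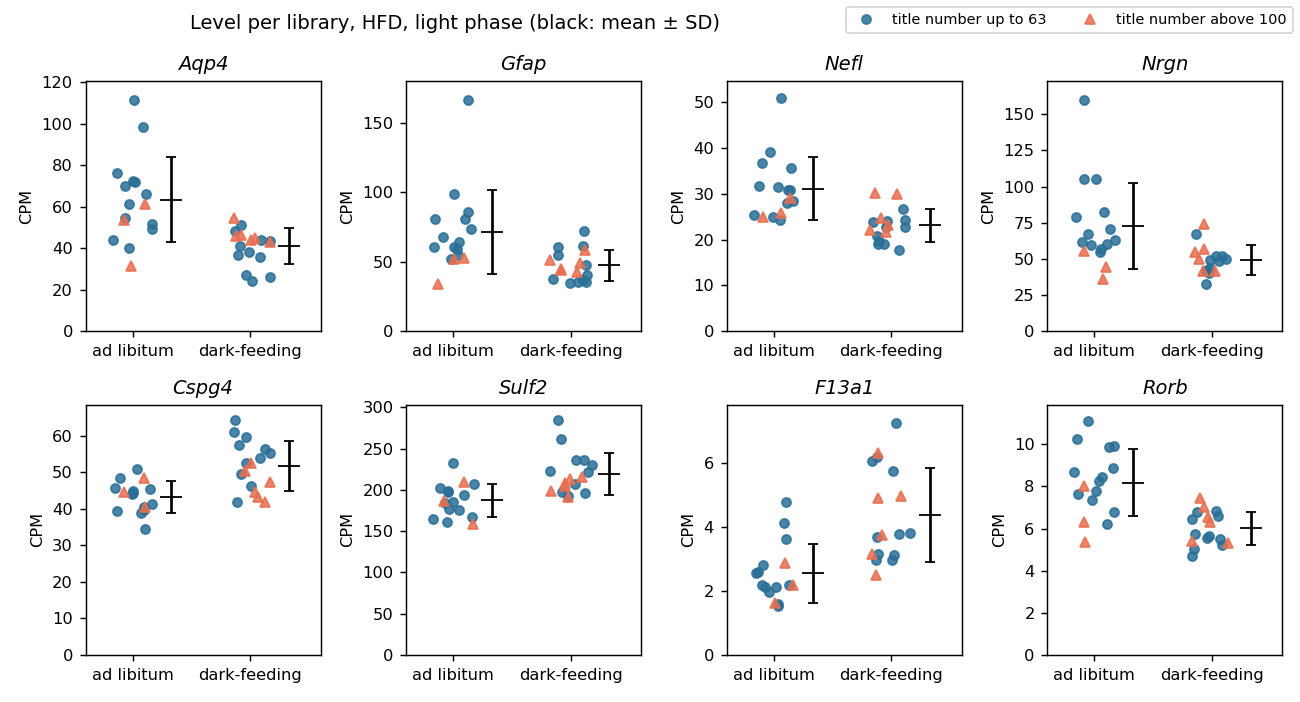
Level in counts per 1e6 counts (CPM) of 8 genes in every library, by feeding schedule. Blue circles are libraries with title numbers up to 63, orange triangles those above 100, and black marks give the mean and standard deviation (SD). Aqp4, Gfap, Nefl, Nrgn and Rorb sit lower under dark-feeding, and Cspg4, Sulf2 and F13a1 sit higher, with overlap between schedules in each panel.

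Astrocyte genes were among the lower genes with the largest changes. Astrocytes are the glia that buffer potassium, water and glutamate at synapses and vessels. Aqp4 encodes the water channel of astrocyte endfeet. It ranged from 31.6 to 112 CPM in ad libitum (median 61.2) and from 24.3 to 54.4 CPM in dark-feeding libraries (median 43.6). All 17 dark-feeding libraries lay below the ad libitum median and 10 ad libitum libraries lay above the highest dark-feeding library, although the ranges overlapped. The change was a log2FC of -0.63 (SE 0.13, adjusted p = 0.026), with -0.48 at ZT2, -0.64 at ZT6 and -0.79 at ZT10.

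Gfap, the intermediate filament of astrocytes, ranged from 33.8 to 167 CPM in ad libitum (median 62.6) and from 34.5 to 72.4 CPM in dark-feeding libraries (median 45.0). The fall was a log2FC of -0.60 (SE 0.15, adjusted p = 0.045), and 6 ad libitum libraries were above every dark-feeding library. By time it was -0.45 at ZT2, -0.44 at ZT6 and -0.90 at ZT10. Mlc1, a membrane protein of astrocyte endfeet, ranged from 20.9 to 68.6 CPM in ad libitum (median 34.3) and from 15.1 to 40.8 CPM in dark-feeding libraries (median 23.2), with a log2FC of -0.62 (SE 0.13, adjusted p = 0.031). Of the dark-feeding libraries 16 of 17 lay below the ad libitum median, and the library titled 133 was the highest of them.

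The gap junction genes of astrocytes fell as well. Gjb6, a connexin, ranged from 3.04 to 10.2 CPM in ad libitum (median 5.91) and from 3.06 to 6.21 CPM in dark-feeding libraries (median 4.19), with a log2FC of -0.61 (SE 0.14, adjusted p = 0.040). For Gja1, the other main connexin of these cells, the levels ran from 14.1 to 44.2 CPM in ad libitum (median 27.6) and from 12.8 to 29.7 CPM in dark-feeding libraries (median 19.6), with a log2FC of -0.50 (SE 0.12, adjusted p = 0.040). Both genes overlapped between schedules, with 7 and 7 ad libitum libraries above the dark-feeding maximum.

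Ntsr2, a neurotensin receptor enriched in astrocytes, had a log2FC of -0.56 (SE 0.14, adjusted p = 0.045), and all 17 dark-feeding libraries lay below the ad libitum median. Agt encodes angiotensinogen, which astrocytes secrete in the brain. It ranged from 17.7 to 55.9 CPM in ad libitum (median 36.5) and from 16.0 to 39.9 CPM in dark-feeding libraries (median 24.5), with a log2FC of -0.54 (SE 0.12, adjusted p = 0.040). The schedules overlapped, and the highest dark-feeding library was again the one titled 133. Slc6a11, a GABA transporter of astrocytes, ranged from 6.66 to 17.6 CPM in ad libitum (median 11.1) and from 5.19 to 10.4 CPM in dark-feeding libraries (median 7.57), with a log2FC of -0.54 (SE 0.11, adjusted p = 0.026) and all 17 dark-feeding libraries below the ad libitum median. The endothelin receptor Ednrb (log2FC -0.30) and the acetyltransferase relative Nat8f3 (-0.69) were also called lower.

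Across the list of 17 astrocyte markers 0 were called higher and 5 lower (Aqp4, Gfap, Gja1, Gjb6 and Ntsr2), all 17 had a negative log2FC and the median was -0.48, against 0.00 over all genes tested. Aldoc (-0.34, adjusted p = 0.053) and Itih3 (-0.51, adjusted p = 0.065) did not pass. The summed level of the list was 802 to 1938 CPM in ad libitum (median 1131) and 766 to 1114 CPM in dark-feeding libraries (median 955). Leaving out any 1 library kept the median between -0.53 and -0.42. Among the ZT10 libraries with title numbers above 100 alone, 3 ad libitum and 2 dark-feeding, the median was 0.18.

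**Figure D2:**
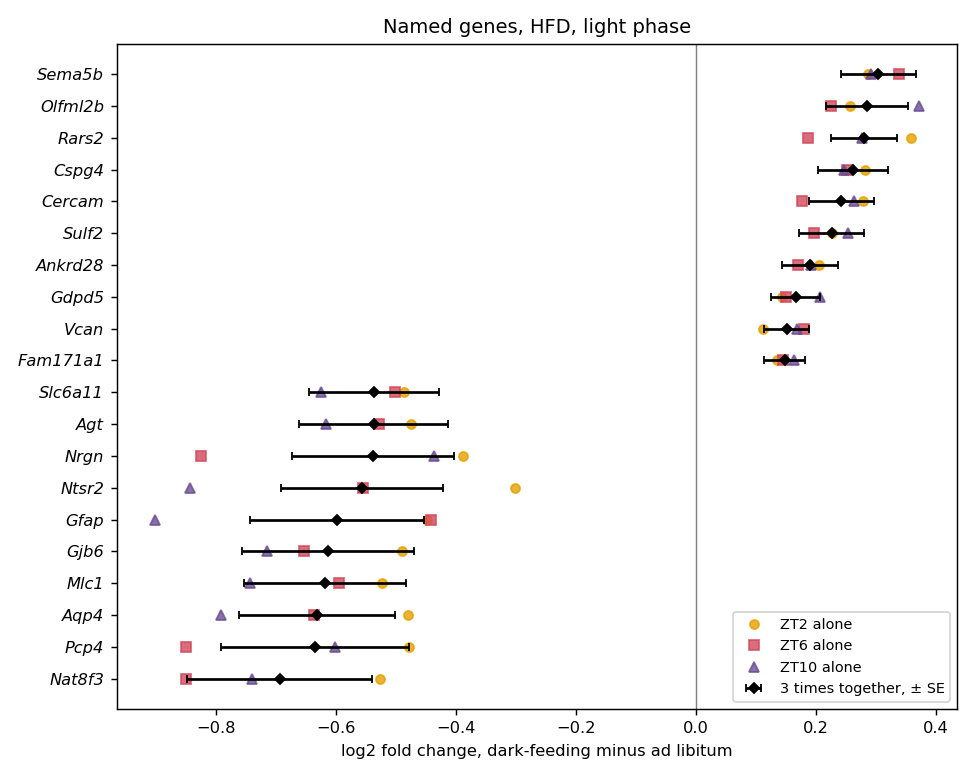
Log2FC (dark-feeding minus ad libitum) of the 10 called genes with the largest change in each direction among those with a symbol and a mean of at least 5 CPM, at ZT2, ZT6 and ZT10 and over the 3 times with its standard error (SE). Keeping 1 sign at all 3 times was a condition of this choice. Values over the 3 times run from -0.69 to -0.54 for the lower genes and from 0.15 to 0.30 for the higher genes.

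Neuronal genes were also lower, among them the neurofilament proteins that fill axons. Nefl, the light subunit, ranged from 24.2 to 50.9 CPM in ad libitum (median 30.0) and from 17.8 to 30.3 CPM in dark-feeding libraries (median 22.8). Of the dark-feeding libraries 12 of 17 lay below the lowest ad libitum library. The fall was a log2FC of -0.43 (SE 0.08, adjusted p = 0.026), with -0.33 at ZT2, -0.54 at ZT6 and -0.43 at ZT10.

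The medium subunit Nefm ranged from 22.5 to 40.1 CPM in ad libitum (median 29.9) and from 16.6 to 33.3 CPM in dark-feeding libraries (median 22.0), and 10 dark-feeding libraries lay below the ad libitum minimum (log2FC -0.37, adjusted p = 0.026). The heavy subunit Nefh ranged from 35.1 to 51.1 CPM in ad libitum (median 42.3) and from 24.5 to 51.8 CPM in dark-feeding libraries (median 32.2), with a log2FC of -0.36 (SE 0.08, adjusted p = 0.034). Ina, the alpha-internexin that assembles with them, ranged from 62.9 to 81.4 CPM in ad libitum (median 71.7) and from 46.5 to 76.1 CPM in dark-feeding libraries (median 59.7), with a log2FC of -0.26 (SE 0.05, adjusted p = 0.026). For Nefh and Ina 11 and 12 dark-feeding libraries lay below every ad libitum library, while the highest dark-feeding libraries reached into or past the ad libitum range. Tubb3, the neuronal beta-tubulin, had a log2FC of -0.36 (SE 0.08, adjusted p = 0.026).

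Other genes called lower, grouped here after their values were seen, are known from synapses and calcium signalling. Rab3a, a GTPase of synaptic vesicles, ranged from 61.5 to 111 CPM in ad libitum (median 82.0) and from 55.6 to 84.3 CPM in dark-feeding libraries (median 65.1), with a log2FC of -0.31 (SE 0.06, adjusted p = 0.026). The ranges overlapped. Cplx1, the complexin that clamps vesicle fusion, had a log2FC of -0.30 (SE 0.06, adjusted p = 0.026). The calmodulin genes Calm2 (-0.37) and Calm3 (-0.35) were called lower, and for Calm2 all 17 dark-feeding libraries lay below the ad libitum median. Nrgn encodes neurogranin, a postsynaptic calmodulin-binding protein of forebrain neurons, and ranged from 36.2 to 160.0 CPM in ad libitum (median 62.4) and from 32.6 to 74.4 CPM in dark-feeding libraries (median 49.6), with a log2FC of -0.54 (SE 0.13, adjusted p = 0.049). Its highest ad libitum library, at 160.0 CPM, was the one titled 45, which stood apart on the first principal component, and the low ends of both schedules were close. That library was also the highest ad libitum library for Nefl, Nefm, Tubb3, Rab3a, Cplx1, Hpca, Calm2 and Calm3. Without it all 89 genes were called with the same sign. The hippocampal calcium sensors Hpca (-0.46) and Hpcal4 (-0.46), beta-synuclein Sncb (-0.31), the striatal phosphatase inhibitor Ppp1r1b (-0.38) and the scaffold Akap5 (-0.47) were called lower too.

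Of 18 neuron markers 0 were called higher and 5 lower (Nefl, Nefm, Nefh, Tubb3 and Nrgn), all 18 had a negative log2FC and the median was -0.16. Of 12 genes of cerebellar granule and Purkinje neurons 0 were called higher and 2 lower, with a median of -0.07. Both are Purkinje cell proteins: Pcp2 had a log2FC of -0.69 (SE 0.16, adjusted p = 0.040) and Pcp4 a log2FC of -0.63 (SE 0.16, adjusted p = 0.046). The Purkinje gene Car8 was not called (log2FC -0.51, adjusted p = 0.074). The highest library of Pcp4, the ad libitum library titled 45 at 53.1 CPM, was above a dark-feeding maximum of 20.8 CPM.

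Genes of oxidative phosphorylation, the mitochondrial chain that makes ATP, mostly had negative values, and 3 were called. Of 74 tested 0 were called higher and 3 lower, 70 had a negative log2FC, 38 were lower at an unadjusted p under 0.05 and the median was -0.17. Cox8a, a subunit of cytochrome oxidase, ranged from 32.9 to 71.4 CPM in ad libitum (median 46.5) and from 27.7 to 44.1 CPM in dark-feeding libraries (median 36.5), with a log2FC of -0.36 (SE 0.08, adjusted p = 0.040). Its dark-feeding libraries all lay below the ad libitum median. The complex I subunit Ndufa8 (log2FC -0.35, adjusted p = 0.045) and the ATP synthase subunit Atp5g1 (log2FC -0.26, adjusted p = 0.045) were also called, and Ndufb9 was not (log2FC -0.39, adjusted p = 0.053). The list's median was above 0 in 2 alternatives, the ZT10 libraries with title numbers above 100 alone and the fit with marker scores. Of 24 glycolysis genes 0 were called and 8 were lower at an unadjusted p under 0.05, with a median of -0.09 (Pgam1 log2FC -0.26, adjusted p = 0.057). Of 21 NRF2 and antioxidant genes 0 were called and 6 were lower at an unadjusted p under 0.05, with a median of -0.11 (the cystine transporter Slc7a11 log2FC -0.50, adjusted p = 0.064).

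Among vessel-associated genes 1 was called, where 0.628% of all genes tested were called. Notch3, the receptor that maintains mural cells, ranged from 3.46 to 7.76 CPM in ad libitum (median 5.48) and from 2.08 to 6.02 CPM in dark-feeding libraries (median 3.67), with a log2FC of -0.50 (SE 0.12, adjusted p = 0.040). Its ranges overlapped. It was the 1 called gene of 8 mural markers, whose median was -0.39, and Pdgfrb, the other defining receptor, had log2FC -0.42, adjusted p = 0.12. Of 11 meningeal fibroblast genes 0 were called and 6 were lower at an unadjusted p under 0.05, with a median of -0.32 (Fmod log2FC -0.53, adjusted p = 0.058). Of 12 endothelial genes 0 were called, 3 were lower and 1 higher at an unadjusted p under 0.05, and the median was -0.22.

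Cspg4 was among the 17 higher genes. It encodes the NG2 proteoglycan that defines oligodendrocyte precursors. It ranged from 34.4 to 50.8 CPM in ad libitum (median 44.2) and from 41.7 to 64.4 CPM in dark-feeding libraries (median 52.6), and 9 of 17 dark-feeding libraries lay above every ad libitum library. The rise was a log2FC of 0.26 (SE 0.06, adjusted p = 0.034).

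Sulf2, an extracellular sulfatase that trims heparan sulfate, ranged from 159 to 232 CPM in ad libitum (median 186) and from 191 to 285 CPM in dark-feeding libraries (median 213), and all 17 dark-feeding libraries lay above the ad libitum median (log2FC 0.23, adjusted p = 0.045). Vcan encodes the matrix proteoglycan versican, which oligodendrocyte precursors and monocytes both express, and ranged from 128 to 167 CPM in ad libitum (median 145) and from 144 to 186 CPM in dark-feeding libraries (median 160.5), with a log2FC of 0.15 (SE 0.04, adjusted p = 0.045). The semaphorin Sema5b ranged from 12.2 to 20.6 CPM in ad libitum (median 16.4) and from 14.3 to 25.1 CPM in dark-feeding libraries (median 19.8), with a log2FC of 0.30 (SE 0.06, adjusted p = 0.026). The schedules overlapped for Vcan and Sema5b, and the dark-feeding ZT2 library titled 48 was the highest of its schedule for both Sulf2 and Sema5b. It was also the highest dark-feeding library for Cspg4, Olfml2b, Rars2, Cercam, Ankrd28, Gdpd5 and F13a1. Without it 19 genes were called, 5 higher and 14 lower. Olfml2b, a secreted olfactomedin-like protein, had a log2FC of 0.28 (SE 0.07, adjusted p = 0.045), with all 17 dark-feeding libraries above the ad libitum median.

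Rars2, the mitochondrial arginyl-tRNA synthetase, had a log2FC of 0.28 (SE 0.06, adjusted p = 0.026) and Cercam a log2FC of 0.24 (SE 0.05, adjusted p = 0.034). Smaller rises were called for Ankrd28 (log2FC 0.19), Gdpd5 (0.17) and Fam171a1 (0.15). Fam171a1 had 10 dark-feeding libraries above the ad libitum maximum of 73.9 CPM. Of 9 oligodendrocyte precursor markers 1 was called higher (Cspg4) and 0 lower, all 9 had a positive log2FC and the median was 0.21. Pdgfra, their growth factor receptor, had log2FC 0.21, adjusted p = 0.12, and Neu4 log2FC 0.26, adjusted p = 0.061. Of 14 oligodendrocyte genes 0 were called and 6 were higher at an unadjusted p under 0.05, all 14 had a positive log2FC and the median was 0.16 (Hapln2 log2FC 0.24, adjusted p = 0.19; Mag, a myelin adhesion protein, log2FC 0.21, adjusted p = 0.20).

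**Figure D3:**
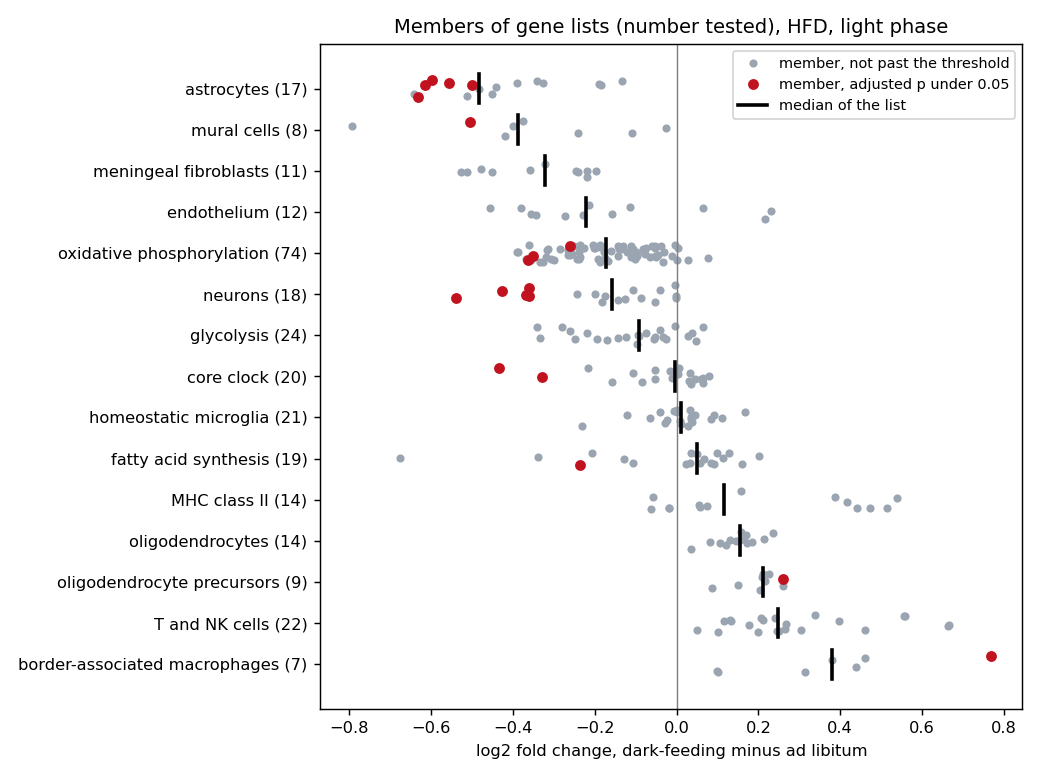
Log2FC (dark-feeding minus ad libitum) of the members of 15 gene lists. Each point is a gene, red points are called genes and black bars are list medians. The astrocyte list has 5 called genes and a median of -0.48, and all 9 oligodendrocyte precursor genes lie above 0, with a median of 0.21.

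Markers of the macrophages that line the brain's borders and of blood cells had positive medians, and 1 border macrophage gene was called. F13a1, a coagulation factor subunit, ranged from 1.52 to 4.78 CPM in ad libitum (median 2.19) and from 2.48 to 7.22 CPM in dark-feeding libraries (median 3.78), and all 17 dark-feeding libraries lay above the ad libitum median (log2FC 0.77, adjusted p = 0.026). It was the 1 called gene of 7 such markers, which had a median of 0.38, and Mrc1, the mannose receptor CD206, had log2FC 0.46, adjusted p = 0.065. Of 22 T and NK cell genes 0 were called and 5 were higher at an unadjusted p under 0.05, all 22 had a positive log2FC and the median was 0.25. The perforin gene Prf1 had log2FC 0.67, adjusted p = 0.22, with 1.43 at ZT2, 0.20 at ZT6 and 0.22 at ZT10, and without the ZT2 libraries the list's median was -0.04.

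Antigen presentation genes of MHC class II had 0 of 14 called and 6 higher at an unadjusted p under 0.05, with a median of 0.12. Cd74, the invariant chain, was chosen after its values were seen. It was 83.5 to 148.0 CPM in the 6 ad libitum and 168.0 to 480.0 CPM in the 6 dark-feeding libraries at ZT2, which did not overlap. Title numbers separate the schedules there too, and edgeR called 0 genes at ZT2. The share of all genes without overlap at ZT2 was not counted. At ZT6 the Cd74 ranges were 96.5 to 329.2 CPM and 118.0 to 214.3 CPM and at ZT10 they were 141.1 to 188.5 CPM and 133.2 to 251.3 CPM. Over the 3 times Cd74 was not called (log2FC 0.42, adjusted p = 0.24). Monocyte and neutrophil markers had 1 of 6 called higher (Vcan), with a median of 0.18, and B cell markers had 0 of 5 (0 at an unadjusted p under 0.05), with a median of 0.21.

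The lists of microglial genes held no call, where 0.628% of all genes tested were called. Of 21 homeostatic genes 0 were called and 1 was lower at an unadjusted p under 0.05, with a median of 0.01. P2ry12 ranged from 59.9 to 101 CPM in ad libitum (median 70.4) and from 55.2 to 99.6 CPM in dark-feeding libraries (median 74.1), with a log2FC of 0.00 (SE 0.07, adjusted p = 1), and the schedules overlapped throughout. Tmem119 (log2FC 0.03, adjusted p = 0.90) and the fractalkine receptor Cx3cr1 (log2FC 0.04, adjusted p = 0.88) did not pass either. Among genes of disease-associated microglia 0 of 22 were called (median 0.05; 3 higher and 1 lower at an unadjusted p under 0.05). Calls numbered 0 of 15 for complement (median 0.04; 0 unadjusted), 0 of 21 for NF-kB and cytokines (0.05; 1 unadjusted) and 0 of 24 for the interferon response (0.09; 0 unadjusted). They numbered 0 of 23 for MHC class I and the immunoproteasome (0.10; 1 unadjusted) and 0 of 33 for the phagosome and lysosome (0.04; 4 unadjusted).

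Among genes that respond to fasting and feeding 1 was called, where 0.628% of all genes tested were called. At that share these lists together may hold 1 call. Of 24 genes of fasting, PPAR targets and fatty acid oxidation 0 were called and 3 were lower at an unadjusted p under 0.05, with a median of -0.08. Cpt1a, the gate of mitochondrial fatty acid uptake, had log2FC -0.16, adjusted p = 0.18. Of 25 insulin and FOXO genes 0 were called (2 higher and 2 lower unadjusted), with a median of 0.02, and the glucose-responsive gene Txnip had log2FC 0.22, adjusted p = 0.23. Calls numbered 0 of 14 for glucocorticoid-induced genes (median 0.05; 1 unadjusted), 0 of 24 for cholesterol synthesis (0.04; 4 unadjusted) and 0 of 11 for LXR targets (0.02; 1 unadjusted). Of 19 fatty acid synthesis genes 1 was called lower: Fads1, the delta-5 desaturase, ranged from 46.4 to 80.5 CPM in ad libitum (median 56.9) and from 43.5 to 61.1 CPM in dark-feeding libraries (median 49.0), with a log2FC of -0.24 (SE 0.06, adjusted p = 0.045). Its ranges overlapped.

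A further 9 lists held 0 calls, with medians from -0.08 to 0.07. They were cytosolic (0 of 76, median -0.04) and mitochondrial ribosomal proteins (0 of 72, -0.08), the proteasome (0 of 34, -0.05), heat shock and cold-inducible genes (0 of 14, -0.08), ER chaperones (0 of 18, 0.07), ATF4 targets (0 of 18, -0.01), immediate early genes (0 of 21, 0.00), ependyma (0 of 4, 0.05) and erythrocytes (0 of 6, 0.04). At an unadjusted p under 0.05 the mitochondrial ribosomal list had 10 lower genes, the proteasome 8 and the ER chaperones 4 higher.

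The core clock held 2 called genes, Rorb and Hlf, both lower, where 0.628% of all genes tested were called. Of 20 core clock genes 0 were called higher and 2 lower, with a median of 0.00. Rorb, a nuclear receptor that binds the same element as NR1D1, ranged from 5.36 to 11.1 CPM in ad libitum (median 8.13) and from 4.69 to 7.44 CPM in dark-feeding libraries (median 5.76). All 17 dark-feeding libraries lay below the ad libitum median and 11 ad libitum libraries lay above every dark-feeding one. The fall was a log2FC of -0.43 (SE 0.08, adjusted p = 0.026), with -0.29 at ZT2, -0.63 at ZT6 and -0.41 at ZT10. Among ZT10 titles above 100 the schedules overlapped for Rorb. It stood there at 8.0, 6.3 and 5.4 CPM in ad libitum and at 7.0 and 5.4 CPM in dark-feeding libraries. Between ad libitum ZT10 titles above 100 and those up to 46 its log2FC was -0.55 (edgeR adjusted p = 0.16). Hlf, a PAR-domain factor related to Dbp, ranged from 16.2 to 34.2 CPM in ad libitum (median 22.8) and from 12.2 to 25.8 CPM in dark-feeding libraries (median 18.2), with a log2FC of -0.33 (SE 0.08, adjusted p = 0.045). Its ranges overlapped. At ZT10 among titles above 100 alone its log2FC between schedules was 0.03. Hlf was also called between the title ranges of the dark-feeding libraries, as given below.

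Windows around the transcription starts of 4 clock genes whose schedule difference changed sign over the light phase are shown, since E-boxes and receptor sites are the elements on which the loop is known to act. They were chosen after values and windows were seen: 3 hold a motif searched for and that of Dbp holds none. They come from RefSeq's GRCr8 table, which holds 250 bases before and 50 after each start. Capitals mark the E-box CACGTG, which reads the same on both strands, or the receptor half-site AGGTCA (searched also as TGACCT).
Ciart, chr2:186112197-186112496, minus strand: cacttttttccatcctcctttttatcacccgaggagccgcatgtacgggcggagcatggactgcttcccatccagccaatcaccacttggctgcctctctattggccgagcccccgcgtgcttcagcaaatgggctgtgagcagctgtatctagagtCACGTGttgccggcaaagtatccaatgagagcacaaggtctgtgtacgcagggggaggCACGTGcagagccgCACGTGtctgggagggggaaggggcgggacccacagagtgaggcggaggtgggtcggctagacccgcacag
Nr1d1, chr10:84229405-84229704, minus strand: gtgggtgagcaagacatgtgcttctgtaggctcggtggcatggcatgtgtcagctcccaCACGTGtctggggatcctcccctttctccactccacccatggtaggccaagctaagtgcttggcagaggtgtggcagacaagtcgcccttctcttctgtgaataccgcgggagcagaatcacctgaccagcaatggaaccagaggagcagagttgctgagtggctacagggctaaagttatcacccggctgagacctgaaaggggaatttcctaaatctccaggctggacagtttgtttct
Arntl (Bmal1 in RefSeq), chr1:176766078-176766377, plus strand: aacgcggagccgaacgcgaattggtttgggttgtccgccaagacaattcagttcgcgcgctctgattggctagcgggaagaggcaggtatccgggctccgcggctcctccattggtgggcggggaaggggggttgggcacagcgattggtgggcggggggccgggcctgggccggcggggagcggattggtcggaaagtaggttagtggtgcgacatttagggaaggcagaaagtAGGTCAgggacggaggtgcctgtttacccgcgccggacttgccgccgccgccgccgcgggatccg
Dbp, chr1:105312006-105312305, plus strand: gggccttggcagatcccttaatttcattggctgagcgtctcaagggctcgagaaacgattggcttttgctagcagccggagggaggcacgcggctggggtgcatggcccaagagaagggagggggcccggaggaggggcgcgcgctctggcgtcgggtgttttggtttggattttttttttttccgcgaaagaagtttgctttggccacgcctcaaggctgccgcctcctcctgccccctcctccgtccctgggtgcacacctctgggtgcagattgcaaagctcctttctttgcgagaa

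The Ciart window held 3 E-boxes, this Nr1d1 window 1 (the window at its other start held 0) the Arntl window 1 AGGTCA and the Dbp window 0 of either. Of the 20 clock genes 17 matched the table, with 19 windows, and 5 genes had CACGTG and 2 had AGGTCA or TGACCT. Over all 33469 windows of the table CACGTG occurred in 6.42% and AGGTCA or TGACCT in 16.18%. These matches describe the letters only.

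Dbp, a PAR-domain factor whose transcript follows BMAL1 and CLOCK activity closely, was lower under dark-feeding at ZT6 in these libraries, without passing the test. In ad libitum libraries it was 27.9 ± 2.49 CPM at ZT2 (SD, n = 6), 45.3 ± 6.75 at ZT6 (n = 5) and 44.7 ± 6.19 at ZT10 (n = 5). In dark-feeding libraries it was 23.2 ± 2.77 CPM at ZT2 (n = 6), 30.2 ± 1.52 at ZT6 (n = 5) and 49.5 ± 9.14 at ZT10 (n = 6). The ZT6 ranges, 38.3 to 54.3 CPM and 28.8 to 32.4 CPM, did not overlap, whereas those at ZT10 did. Title numbers also separate the schedules at ZT6, and the share of all genes without overlap there was not counted. The ZT6 difference of -0.58 had an adjusted p of 0.14 by edgeR, and the test of a difference between times gave an adjusted p of 0.999, so neither passed.

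Ciart, a repressor of CLOCK and BMAL1, had log2FC values of -0.21 at ZT2, -0.23 at ZT6 and 0.47 at ZT10. Nr1d1 had -0.13, -0.32 and 0.11 at the same times. Arntl, which peaks opposite to those genes, and Cry1 had the reverse order: 0.09, 0.26 and -0.21 for Arntl and 0.15, 0.26 and -0.21 for Cry1. None of these differences passed the test across all genes, and each had an adjusted p of 0.999 for the difference between times.

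A further 12 clock genes were not called. Over the 3 times the log2FC was 0.06 for Per1, 0.08 for Per2 and 0.07 for Per3, 0.01 for Cry2, 0.03 for Clock and -0.16 for Npas2. It was -0.05 for Nr1d2, -0.05 for Rora, -0.09 for Tef and -0.01 for Nfil3. The repressors Bhlhe40 and Bhlhe41 had 0.00 and 0.03.

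**Figure D4:**
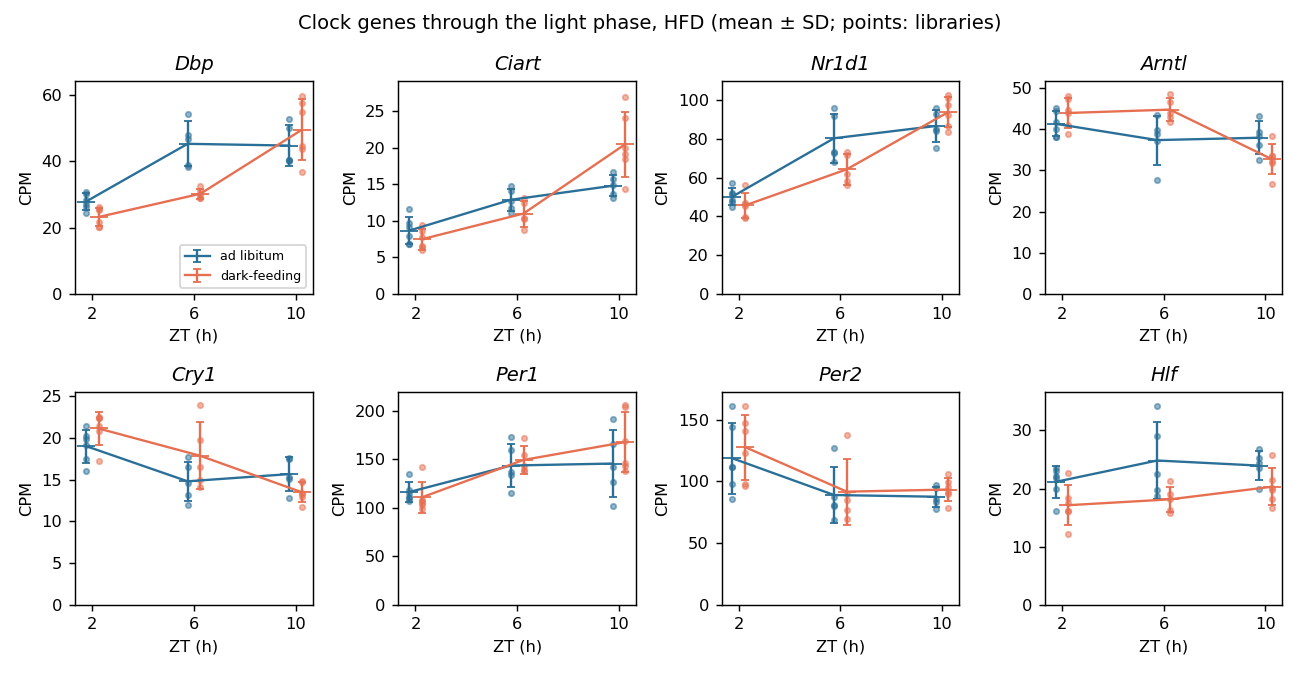
Mean and SD in CPM of 8 clock genes at ZT2, ZT6 and ZT10 in ad libitum and dark-feeding libraries. For Dbp at ZT6 the libraries of the 2 schedules do not overlap, with means of 45.3 and 30.2 CPM. The share of all genes without overlap at ZT6 was not counted.

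In the dark phase of HFD (ZT14, ZT18 and ZT22; 18 ad libitum and 16 dark-feeding libraries, none of them used above), more genes were called: 641 of 14021 (4.57%), with 349 higher (2.49%) and 292 lower (2.08%). Of the 72 genes called lower in the light phase 59 were negative there, against 48.6% of all genes, and 6 of them (8.3%) were called lower. Their median log2FC was -0.12 there and -0.38 in the light phase, where they had been chosen. Nrgn (-0.32, adjusted p = 0.038) and Calm2 (-0.36, adjusted p = 0.00097) were among those, whereas Aqp4 had -0.22, Nefl -0.10 and Cspg4 0.15. The astrocyte list had a median of -0.17 with 0 of 17 called in the dark phase. Title numbers differed there too, with 15 of 18 ad libitum and 0 of 16 dark-feeding libraries numbered up to 46.

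The direct test of a difference between phases called 1 gene of 14109 (0.00709%) by edgeR, with 2114 at an unadjusted p under 0.05, and DESeq2 called 145. That gene was Kcnab2, a beta subunit of voltage-gated potassium channels. In the light phase its mean was 92.5 ± 8.63 CPM in ad libitum (SD, n = 16) and 84.8 ± 10.4 in dark-feeding libraries (n = 17). In the dark phase it was 87.0 ± 8.79 (n = 18) and 101.9 ± 10.6 (n = 16). The log2FC was thus higher by 0.36 in the dark phase (SE 0.07, adjusted p = 0.0495), and the call was lost with title number as a linear covariate. A difference between the phases is therefore not shown for Aqp4, Gfap, Nefl, Rorb or Cspg4.

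On chow, a standard low-fat diet, the same comparison in the light phase (17 and 17 libraries) called 0 of 14228 genes by edgeR, with 1674 at an unadjusted p under 0.05. Of the 72 lower genes 25 were negative on chow, against 50.4% of all genes, and their median there was 0.04. Aqp4 had 0.12 on chow, Nefl -0.02 and Cspg4 0.16. The astrocyte list had a median of 0.14.

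The test of whether the schedule effect differed between diets called 3 of 14195 genes (0.0211%) by edgeR, with 1367 at an unadjusted p under 0.05. All 3 had a lower log2FC (dark-feeding minus ad libitum) on HFD than on chow. DESeq2 called 34. Nrgn was 72.8 ± 30.2 CPM in HFD ad libitum and 49.6 ± 10.2 in HFD dark-feeding, but 59.2 ± 16.4 in chow ad libitum and 77.1 ± 21.9 in chow dark-feeding libraries (SD, n = 16, 17, 17 and 17). Its difference between diets was -0.93 (SE 0.19, adjusted p = 0.046). Hpca had -0.69 (adjusted p = 0.046) and Zwint, a kinetochore protein also abundant in neurons, had -0.29 (adjusted p = 0.0497). Pcp4 had -0.87 with an adjusted p of 0.082. This test was not refitted with title number terms or without the HFD library titled 45. The titles of the 2 diets were numbered separately, so a title number on chow does not continue the HFD series, and diet and title series cannot be told apart. Among the chow libraries 13 of 17 ad libitum and 8 of 17 dark-feeding titles were above 100.

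Because title numbers differed between schedules, the libraries of 1 schedule were compared by title number. Among ad libitum libraries at ZT10, the 3 titled above 100 differed from the 2 titled up to 46 in 669 of 14177 genes (4.72%) by edgeR, 295 higher (2.08%) and 374 lower (2.64%). The synaptic scaffold Pclo (1.20) and the potassium channel Kcnd2 (0.77) were higher in the libraries above 100. Itih3 (-1.41), the actin-binding Pfn1 (-0.83) and Tmsb4x (-0.66) and the MHC class I light chain B2m (-0.77) were lower. The count was 1, 0 and 4 without the libraries titled 37, 39 and 136, and 1434 without the one titled 114. Without 37 or 39 the lower range has 1 library, which is assumed to vary like those above 100. Of the 17 astrocyte genes 10 were lower in the libraries above 100, with a median log2FC of -1.1.

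At ZT10 Aqp4 stood at 111.6 and 69.9 CPM in the ad libitum libraries titled 37 and 39 and at 61.3, 53.6 and 31.6 CPM in those titled 114, 136 and 137. In the dark-feeding libraries it stood at 43.6, 26.1, 35.9 and 24.3 CPM for titles 60 to 63 and at 54.5 and 45.2 CPM for titles 133 and 135. Among titles above 100 the schedules therefore overlapped, and both ad libitum libraries titled up to 46 were above all 6 dark-feeding ones. Gfap showed the same arrangement, with 166.6 and 99.0 CPM in the ad libitum libraries titled up to 46, 33.8 to 52.5 CPM in those above 100 and 34.5 to 58.8 CPM in the dark-feeding ones.

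Ina was arranged otherwise. It was 73.4 and 65.5 CPM in the ad libitum libraries titled up to 46 and 70.3 to 79.2 CPM in those above 100. In dark-feeding libraries it was 48.7 to 71.9 CPM, with 59.5 and 60.1 CPM for titles above 100, below all 3 ad libitum libraries in that range. Its log2FC between the ad libitum title ranges was 0.06 (adjusted p = 0.72). Nefm was 30.0 and 31.3 CPM up to 46 and 22.5 to 35.5 CPM above 100 in ad libitum libraries. In the dark-feeding libraries titled 133 and 135 Nefm was 27.3 and 22.0 CPM, so above 100 its schedules overlapped. For Agt the log2FC between the ad libitum title ranges was -1.25 (edgeR adjusted p = 0.010), and for Nrgn it was -1.07 (0.021).

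**Figure D5:**
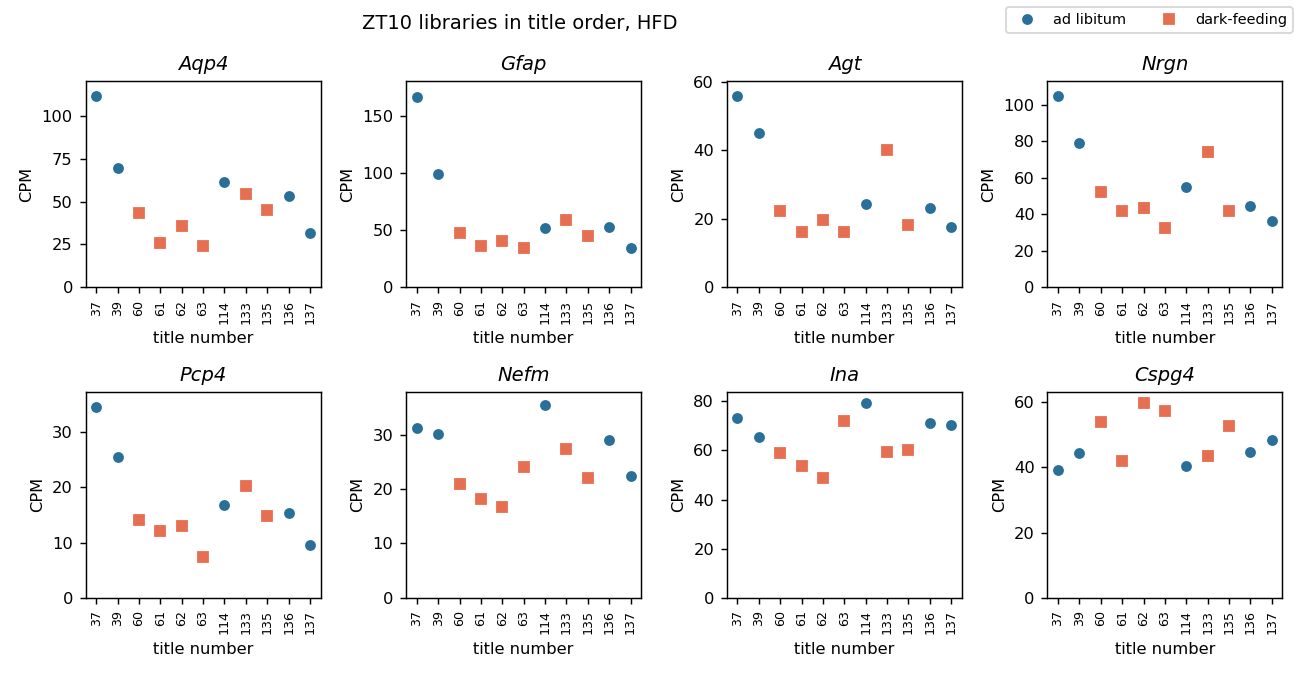
Level in CPM of 8 genes in the 11 ZT10 libraries, in the order of their title numbers, by schedule. For Aqp4, Gfap, Agt and Nrgn the ad libitum libraries titled 37 and 39 are the highest of all, while for Ina the ad libitum libraries above 100 stay above the dark-feeding libraries titled 133 and 135.

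Among the dark-feeding libraries, the 6 titled above 100 differed from the 11 titled 47 to 63 in 333 of 14141 genes (2.35%), 123 higher (0.87%) and 210 lower (1.49%), with time as a factor. The granule protein Scg3 (0.35) and neuroserpin Serpini1 (0.39) were higher above 100, and Atp10a (-0.55) and the fatty acid elongase Elovl1 (-0.39) were lower. The count was 16 without ZT2 and 0 without ZT6. Of the genes named above, Hlf differed in this split (0.35, adjusted p = 0.032), while Aqp4 had 0.34 (0.17), Nefl 0.23 (0.18) and Cspg4 -0.23 (0.15). Both title splits share their libraries with the comparison of schedules.

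Of the 17 genes called higher 4 were uncharacterised loci that were present in 4 libraries and nearly absent elsewhere. LOC102546424 was 32.6 to 35.4 CPM in the dark-feeding libraries titled 117, 118, 124 and 133 and at most 1.32 CPM in the other 29 libraries. LOC102553405 (24.7 to 25.4 CPM), LOC108353270 (17.8 to 21.4 CPM) and LOC102552860 (8.11 to 12.4 CPM) were high in the same 4 libraries, and at most 0.42, 1.21 and 0.733 CPM elsewhere. None of the 16 ad libitum libraries had any of the 4 above 5 CPM. Without these loci 13 genes were called higher.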

How the data were processed

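Bulk RNA was sequenced from strand-specific libraries, per the labels' protocols. Per the submitters' processing notes the build was Rnor_6.0. The sources used here name no aligner or counter. Expected counts, as deposited by the authors, covered 20361 genes, were not normalised and had 8.03% of entries that were not whole. The design had assumed raw counts, so these estimated counts were rounded before every count test. The authors also deposited FPKM values, scaled by gene length and depth, for 17611 genes, which were used for levels between genes and for one alternative, on log2(FPKM + 1) and log2(FPKM + 0.1). Estimation can divide reads between close copies, such as the calmodulin and RT1 genes, which are uncertain to that extent.

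Counts were scaled by TMM and tested in edgeR 4.0.16 (R 4.3.3) by quasi-likelihood over the 33 libraries, with time as a 3-level factor, for genes with a mean of 1 CPM or more. A gene was called at a Benjamini-Hochberg adjusted p under 0.05 over all genes tested. Alternatives used DESeq2 1.42.0, limma 3.58.1, other filters, scalings, title number terms and subsets of libraries. No label names a batch, and the running number in the titles was used in its place. Named genes were the 10 largest changes in each direction among called genes that averaged 5 CPM or more, had a symbol and kept 1 sign at 3 times, up to 4 members with the lowest p per list, core clock genes and, for other tests, the 4 lowest p in each direction; other called genes, and other list members, are named as examples chosen after their values were seen. The members, the 39 lists (25 pathways and 14 cell types) and the tests were chosen with earlier results of these data known. On simulated counts for 14176 genes of this comparison, the test recovered 71% of genes altered 1.25-fold and 83% of those altered 1.5-fold, with 1.91% false calls. The simulated libraries were independent and held no effect of time, title number or single libraries. These rates therefore do not cover such effects in the real libraries. Promoter windows came from RefSeq's GRCr8 table and were searched for 2 motifs, since no genome of the files' build was used here. A few genes that the rule names are not reported here. Light-feeding libraries were left out because the comparison does not concern them.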

Additional observations from a re-analysis of the deposited data

Results flagged for a closer look

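The schedule effect differed between groups by a direct test for 4 genes. Kcnab2 had a log2FC (dark-feeding minus ad libitum) that was 0.36 higher in the dark than in the light phase of HFD. That call was lost with title number as a linear covariate. Between diets in the light phase the log2FC on HFD minus that on chow was -0.93 for Nrgn, -0.69 for Hpca and -0.29 for Zwint. The diet test was not refitted with title number terms or without the HFD library titled 45.

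Single libraries stood far from the others of their schedule and time in 9 of 120 groups of values (7.5%). For independent, normally distributed values chance gives about 1 in 20. These groups share their libraries across genes, so that rate is not a reference for the 7.5%. The dark-feeding library titled 48 (ZT2) was highest for Sema5b (25.1 CPM, next 19.8) and for Sulf2 (285 CPM, next 221). The dark-feeding library titled 133 (ZT10) was highest for Mlc1 (40.8 CPM, next 24.1) and for Agt (39.9 CPM, next 22.3). It is also 1 of the 4 libraries with the uncharacterised loci. At ZT10 the library titled 62 was highest for Olfml2b in dark-feeding (33.6 CPM, next 29.9) and the one titled 37 lowest for Fam171a1 in ad libitum (60.5 CPM, next 70.0). At ZT6 the ad libitum library titled 45 was highest for Ankrd28 (347 CPM, next 279), the one titled 35 lowest for Ntsr2 (9.34 CPM, next 15.0) and the dark-feeding library titled 56 lowest for Mlc1 (22.0 CPM, next 27.7).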

How the results depend on the processing

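The number of genes called in the schedule comparison, 89, depended on the setting. The count was 79 with edgeR's own filter, 50 with no filter, 24 at 5 CPM or more, 90 with DESeq2 size factors, 78 with upper-quartile factors, 48 with library totals only, 217 with DESeq2, 40 with limma-voom, 81 with robust dispersion and 132 with all 200 libraries in the fit. It was 0 on log2(FPKM + 1) and on log2(FPKM + 0.1), 0 with counts summed over runs of adjacent title numbers, 0 at ZT10 alone, 1 at ZT10 among titles above 100, 0 at ZT10 with ad libitum titles above 100 against all dark-feeding libraries, and 7, all higher, with marker scores of 4 cell types as covariates, scores that astrocyte and neuron genes themselves make up. It was 262 with title number as a linear covariate (159 higher and 103 lower, against 17 and 72) and 264 with a term for numbers above 100 (118 and 146). Without ZT2 or ZT6 it was 0 and without ZT10 12. Leaving out 1 library gave 0 to 282 calls; 0 without the ad libitum libraries titled 23 or 37, 282 without title 45 (137 higher and 145 lower). Alternatives chosen after seeing the data gave 641 calls for titles up to 100, 1385 for those without title 45, and 816 without title 45 and with the term for numbers above 100 (529 higher and 287 lower). The cause of these changes was not tested.

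Those of the 89 genes that were tested kept their sign in every setting except 3. They were chosen in these same libraries, which favours such agreement. At ZT10 among titles above 100, 51 of the 89 kept it, and their median size of log2FC was 0.123 against 0.367. With ad libitum titles above 100 against all dark-feeding libraries at ZT10, 80 of 89 kept it, and with marker scores 80 of 89. Of 57 called genes followed across settings 24 reversed at ZT10 among titles above 100: Fads1 0.0079, Ednrb 0.0177, Calm2 0.0238, Calm3 0.0283, Hlf 0.0306, Nkain4 0.0418, Aqp4 0.0452, Notch3 0.066, Ntsr2 0.0693, Cplx1 0.0952, Sncb 0.15, Hpca 0.16, Slc6a20 0.18, Gfap 0.18, Gjb6 0.19, Gja1 0.19, Tubb3 0.21, Slc6a11 0.22, Nat8f3 0.27, Ppp1r1b 0.35, Pcp4 0.35, Nrgn 0.37, Mlc1 0.38 and Agt 0.42. At ZT10 with ad libitum titles above 100 against all dark-feeding libraries 5 reversed: Cplx1 0.0081, Agt 0.015, Sncb 0.0307, Nrgn 0.0808 and Ppp1r1b 0.14. With marker scores 7 did: Pcp4 0.0013, Mlc1 0.0021, Gja1 0.0138, Sncb 0.0195, Pcp2 0.0402, Nrgn 0.0468 and Ntsr2 0.0806. With 1 library left out 0 reversed, and 733 of 1881 values lost their call.

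At single times DESeq2 called 4 genes at ZT2, 3 at ZT6 and 1 at ZT10, against 0. The schedule by phase test called 145 genes with DESeq2, 3 with edgeR's own filter, 0 with linear title number and 47 with the term for numbers above 100, against 1. The schedule by diet test called 34 with DESeq2, against 3. Leaving out 1 library gave 0 to 1434 calls in the ad libitum title split, against 669; without title 37 or 39 the lone library up to 46 is assumed to vary like those above 100. The dark-feeding title split called 735 with DESeq2, 16 without ZT2 and 0 without ZT6, against 333. No paired analysis was possible because title numbers are unique to each library within a diet and the labels give no replicate number. At these depths 1 CPM is 5.27 to 11.5 counts, so genes near the filter rest on few counts.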
